A study of Mus musculus with 12 samples.

Results

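The 9 genes described here are listed as genes of vessel cells, although 1 of them, Bsg, is made by many other cell types as well. They are Cldn5, Pecam1, Flt1, Ly6c1, Slco1a4, Bsg and Itm2a, 7 genes of endothelial cells, and Rgs5 and Vtn, 2 genes of mural cells. They were taken by their symbols as 9 of the 32546 rows of a table of UMI counts, where a UMI (unique molecular identifier) stands for 1 captured molecule, and all 9 were found. The table came from photo-isolation chemistry (PIC), in which an RT primer with a light-sensitive cage is bound in a tissue section and only the cDNA of an irradiated area enters a CEL-seq2 library. Male ICR mice aged 8 weeks gave sections in 4 histological conditions. Fresh-frozen sections received either HCl at 0.1 N over 5 min (fresh-frozen HCl) or TE buffer at 70 °C over 1 h (fresh-frozen TE) as permeabilization, and tissue fixed with 4% PFA was cut as frozen or as paraffin sections and permeabilized with TE (fixed frozen TE and paraffin TE). The paper's protocol treats all sections, fresh-frozen ones included, with 4% PFA before permeabilization. Its HCl arm also uses Triton X-100 and heated PBS, which its TE arm lacks. In each condition the CA1, CA3 and DG regions were outlined on a nuclear stain and irradiated in 4 biological replicates each, 48 replicates in all. Vessels were not outlined or enriched.

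Brain capillaries are lined by endothelial cells that are sealed by tight junctions and carry dense transport systems, which together form the blood-brain barrier. Pericytes are mural cells that share the basement membrane of the capillaries, and smooth muscle cells wrap the arterioles. The cell layers of CA1, CA3 and DG consist mainly of neurons, and capillaries run through them. Cldn5 (claudin 5) is the main claudin of the endothelial tight junction, and Pecam1 is an adhesion molecule of endothelial contacts. Flt1 is a receptor for VEGF. Ly6c1 codes for a GPI-anchored surface protein and Itm2a for a membrane protein of brain endothelium. Slco1a4 is an organic anion transporter of the barrier, and Bsg (basigin) is an immunoglobulin-like membrane protein that accompanies monocarboxylate transporters and is made by many cell types besides endothelium. Rgs5 is a regulator of G-protein signalling and a common pericyte marker, and Vtn codes for vitronectin, a matrix and plasma protein that brain pericytes make.

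On GRCm38 with GENCODE M21, Cldn5 lies on the forward strand at chr16:18776847-18778262. Pecam1 lies on the reverse strand at chr11:106654217-106750628, and Vtn on the forward strand of the same chromosome at chr11:78499091-78502324. Flt1 lies on the reverse strand at chr5:147561604-147726011. Ly6c1 lies on the reverse strand at chr15:75044018-75048830, and Slco1a4 on the reverse strand at chr6:141805440-141856199. Bsg lies on the forward strand at chr10:79704491-79711969. Itm2a lies on the reverse strand of the X chromosome from 107397099 to 107403376, and Rgs5 on the forward strand at chr1:169655501-169695813. No other annotated gene overlapped any of the 9. Of all windows of 50 bases in the longest coding transcript of Ly6c1, 36.7% also occurred in Ly6a or Ly6c2, and of those in its last 500 bases 19.96%, so that part of its reads could not be assigned to it alone and its counts are uncertain. Ly6c2 held 1 UMI in the whole table. For Slco1a4 the share was 2.7% over the transcript and 0% in its last 500 bases, and for the other 7 genes it was 0%.

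The total per replicate ranged from 127253 to 933756 UMIs in fresh-frozen HCl, from 294445 to 1111804 in fresh-frozen TE, from 52800 to 307145 in fixed frozen TE and from 35932 to 223055 in paraffin TE. Replicate 4 had the fewest UMIs in all 12 libraries. The replicates of a region and condition were pooled in 1 library, so that a region and its library cannot be told apart within a condition. Nor can a condition be told apart from its libraries. Summed CPM of 8 markers of DG granule cells lay between 807 and 2483 in the DG replicates and between 100.2 and 650 in the CA1 and CA3 replicates. Levels are given as CPM, the UMIs of a gene per 1000000 UMIs of the replicate. The 9 genes held 11753 UMIs in all, from 69 of Cldn5 and 179 of Pecam1 to 3006 of Rgs5. Since whole areas were lysed, fewer cells of a type and less RNA per cell cannot be told apart. The paper describes reverse transcription in the section as most efficient in fresh-frozen tissue, followed by fixed frozen and paraffin sections. Between conditions, a change in RNA and a change in its capture therefore cannot be told apart either.

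**Figure D1:**
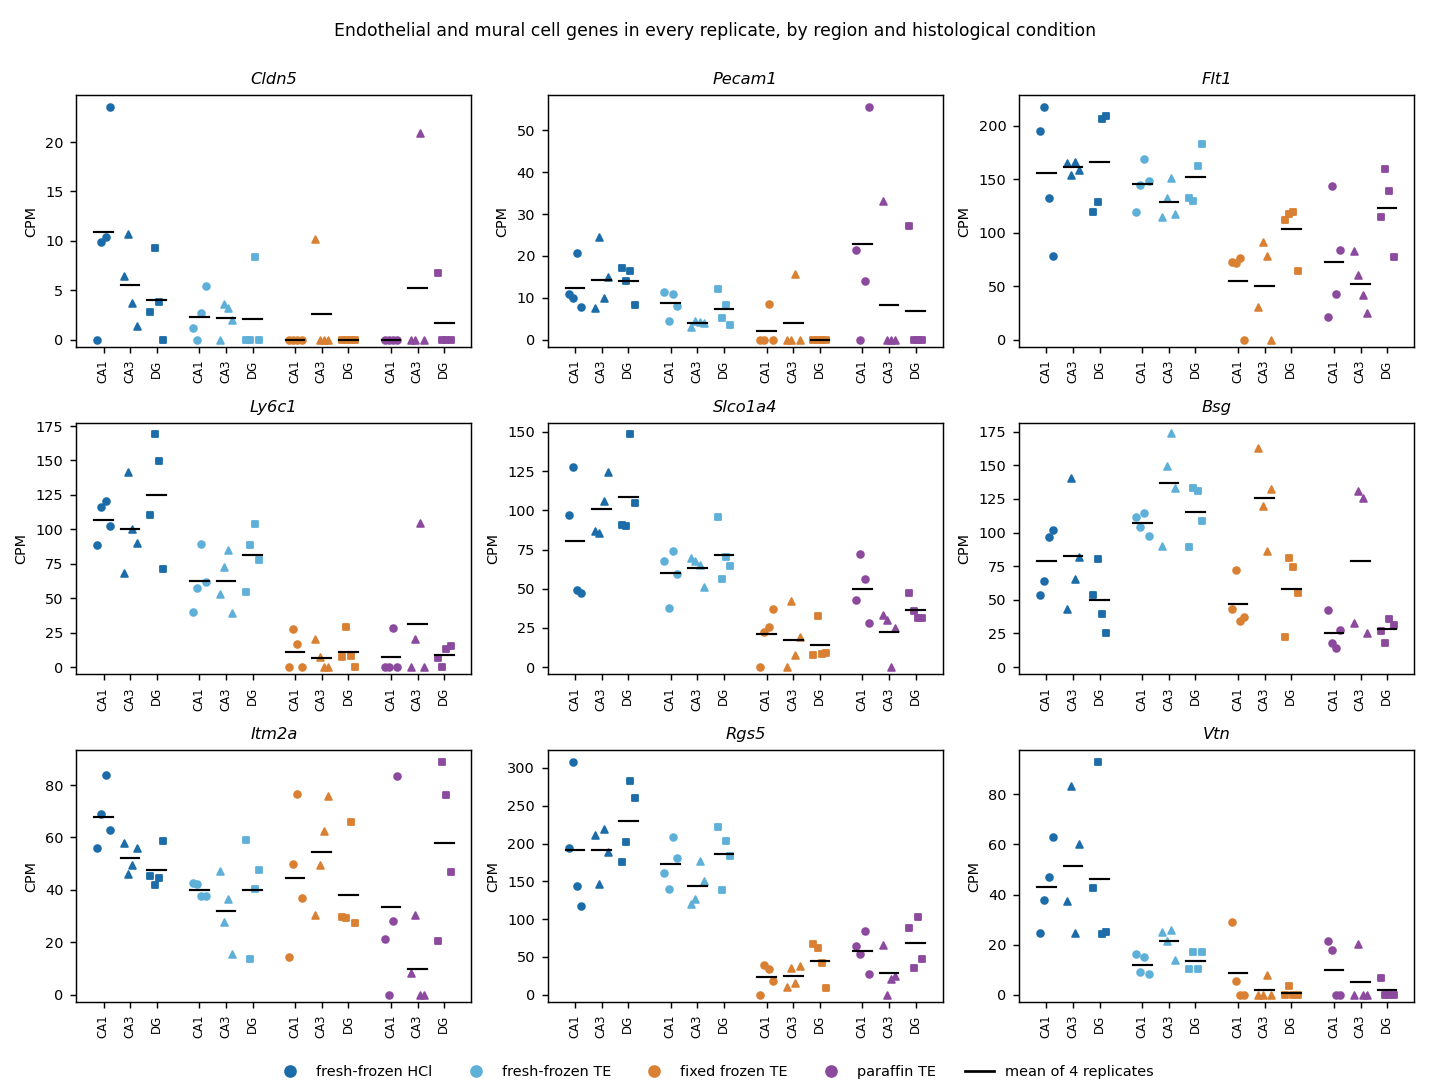
CPM of each gene (y axis, linear, a scale of its own per panel) in the 48 replicates, grouped on the x axis by histological condition (colour) and region; each point is 1 replicate and each black line the mean of 4. Rgs5 in fixed frozen TE reached at most 67.1 CPM, below the lowest fresh-frozen TE replicate at 119 CPM, whereas the points of Itm2a in these conditions overlapped.

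In the comparison of fixed with fresh-frozen sections, both permeabilized with TE, 7 of the 9 genes were lower in fixed frozen sections and none was higher. Rgs5, Ly6c1, Vtn and Slco1a4 fell the most, between 3.44-fold and 5.31-fold, Pecam1, Flt1 and Bsg fell less, and the changes of Cldn5 and Itm2a did not pass the test. The test was edgeR's quasi-likelihood test on the counts of 24 replicates with region as a covariate, and a gene was called at a Benjamini-Hochberg adjusted p under 0.05. The replicates of a region and condition shared a library, and the fit took them as independent. The SE and p-values between conditions therefore cover no error shared by a library. Of all 15878 genes tested, 30.6% were called lower and 17.5% higher in fixed sections. The median log2 fold change was -1.68 over the 9 genes and -0.32 over all genes tested, and the changes of single genes stand against that median.

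The mural cell gene Rgs5 had a lowest level of 119, a median of 169 and a highest level of 222 CPM over the 12 replicates of fresh-frozen TE. In fixed frozen TE the same values were 0, 34.7 and 67.1 CPM, and the conditions did not overlap. The fall was 4.70-fold (log2 fold change -2.23 ± 0.19, SE, edgeR adjusted p = 3.2e-17). It was seen in each region, where the mean went from 172 to 22.8 CPM in CA1, from 143 to 24.8 CPM in CA3 and from 187 to 44.8 CPM in DG. Vtn, the other mural cell gene, ran from 8.09 to 25.7 CPM in fresh-frozen TE with a median of 15.5 CPM. In fixed frozen TE it had 5 UMIs in all, 8 of 12 replicates held none, and the highest level was 29.0 CPM in a replicate with 2 UMIs. The ranges of Vtn therefore overlapped, and its log2 fold change was -2.17 ± 0.52 (edgeR adjusted p = 0.00031).

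Ly6c1 ranged from 39.1 to 104 CPM around a median of 67.5 CPM in fresh-frozen TE. In fixed frozen TE it ranged from 0 to 29.3 CPM around a median of 7.26 CPM, so that every fixed replicate lay below every fresh one. The change was 5.31-fold downward (log2 fold change -2.41 ± 0.30, edgeR adjusted p = 6.2e-11). The transporter gene Slco1a4 had a lowest level of 37.7, a median of 66.4 and a highest level of 95.6 CPM in fresh-frozen TE, against 0, 14.1 and 42.3 CPM in fixed frozen TE. Only the highest fixed replicate reached into the fresh range, and the log2 fold change was -1.78 ± 0.26 (edgeR adjusted p = 1.6e-08).

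Flt1 changed less than these. Its level ran from 115 to 183 CPM in fresh-frozen TE (median 138 CPM) and from 0 to 120 CPM in fixed frozen TE (median 74.6 CPM), and it fell by 0.82 ± 0.17 on the log2 scale (edgeR adjusted p = 3.2e-05). The 2 fixed replicates without a UMI of Flt1 were replicate 4 of CA1 and replicate 4 of CA3, whose totals were the smallest of their libraries. Bsg went from a median of 113 CPM (89.5 to 174 CPM) to a median of 73.1 CPM (22.4 to 163 CPM), with a log2 fold change of -0.63 ± 0.17 (edgeR adjusted p = 0.0015). The 95% interval of Bsg, from -0.96 to -0.29, held the median of all genes.

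Itm2a was the exception among the genes with many UMIs. It ranged from 13.6 to 59.0 CPM in fresh-frozen TE and from 14.5 to 76.7 CPM in fixed frozen TE, with medians of 39.0 and 43.2 CPM. The log2 fold change was 0.34 ± 0.24 with a 95% interval from -0.12 to 0.81 (edgeR adjusted p = 0.23), and this interval lies above the median of all genes and above the intervals of the 7 genes that fell. The junction genes were near the limit of the depth. Cldn5 had 18 UMIs in fresh-frozen TE and 1 in fixed frozen TE, where 3 UMIs of the condition's total correspond to 1.84 CPM, and its log2 fold change of -1.44 ± 0.99 did not pass the test (edgeR adjusted p = 0.23). Pecam1 had 52 UMIs in fresh-frozen TE, in all 12 replicates, and 3 UMIs in fixed frozen TE, in 2 replicates. Its log2 fold change was -1.68 ± 0.67 (edgeR adjusted p = 0.032), and the call was lost when DESeq2 was used, when all 48 replicates were fitted together or when replicate 4 was left out of every library (adjusted p up to 0.079). It was also lost without any 1 of 11 of the 24 replicates (adjusted p up to 0.092), namely replicates 1 and 3 of CA1 and of DG in fresh-frozen TE and, in fixed frozen TE, replicates 1 and 2 of CA1, replicate 2 of CA3 and each replicate of DG. With every replicate thinned to the smallest total, 7 genes could be tested and 4 were called, which were Flt1, Ly6c1, Slco1a4 and Rgs5. Of all 8924 genes tested on the thinned counts, 1404 were called lower and 1276 higher in fixed frozen sections.

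**Figure D2:**
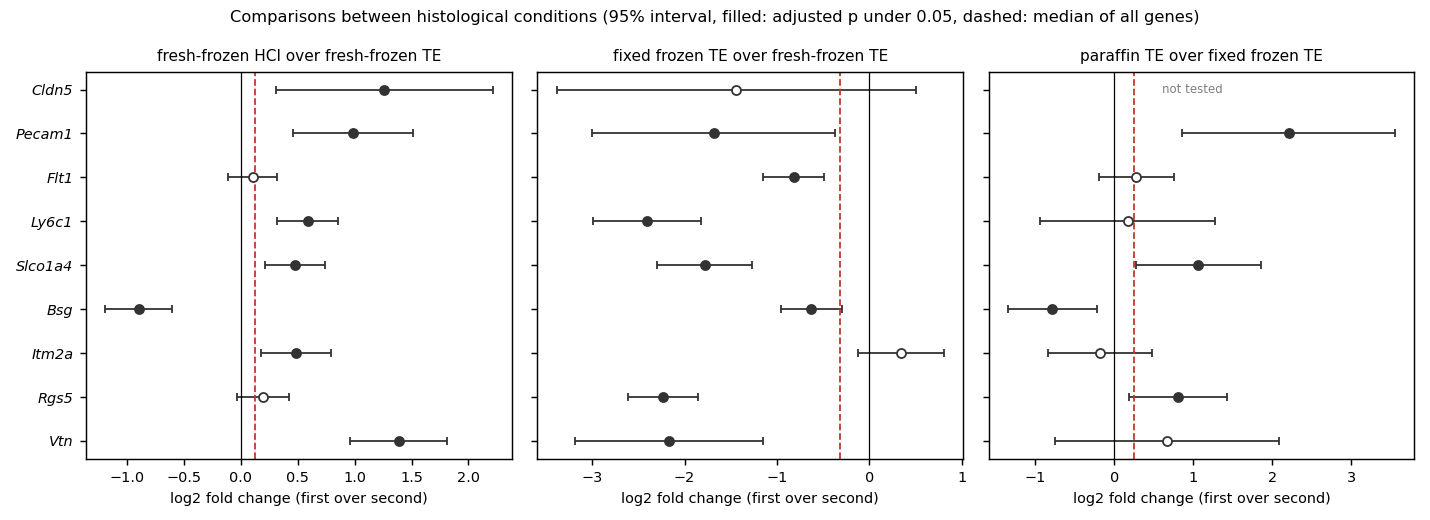
Log2 fold change of each gene (x axis) in the 3 comparisons between histological conditions, with the 95% interval of the fitted model as a bar, filled points for an adjusted p under 0.05 and a dashed red line at the median of all genes tested. In the middle panel 7 of 9 genes lie left of 0 and are filled, and Itm2a lies at 0.34.

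Wider lists of vascular genes gave counts in the same comparison, where 30.6% of all genes were called lower and 17.5% higher. Of 37 other endothelial genes, 33 were tested, of which 14 were lower and 1 was higher in fixed frozen sections, with a median log2 fold change of -0.92. The largest falls with enough counts were those of Adgrf5, Foxq1, Ptprb and Cdh5. Ptprb, an endothelial phosphatase, fell from 111 to 19.1 CPM (log2 fold change -2.31 ± 0.23, edgeR adjusted p = 2.3e-14), and Cdh5, the cadherin of endothelial junctions, from 11.8 to 3.50 CPM (log2 fold change -2.07 ± 0.63, edgeR adjusted p = 0.0045). Cd34, a surface sialomucin, was the gene that rose, from 13.7 to 37.5 CPM (log2 fold change 1.31 ± 0.32, edgeR adjusted p = 0.00043). Of 19 other mural cell genes 11 were tested, 8 were lower and none was higher, with a median of -2.32. Acta2, smooth muscle actin, fell from 27.7 to 2.31 CPM (log2 fold change -3.39 ± 0.57, edgeR adjusted p = 4.2e-07), and Cspg4, the NG2 proteoglycan of pericytes and of oligodendrocyte precursors, from 22.3 to 1.68 CPM (log2 fold change -3.34 ± 0.54, edgeR adjusted p = 1.6e-07). In fixed frozen sections 8 of the 19 had no UMI at all. Of 17 genes of vascular signalling 14 were tested, 6 were lower and 2 were higher. Vegfa, the ligand of Flt1, fell by 1.16 ± 0.20 on the log2 scale (edgeR adjusted p = 1.5e-06), and Nrp1, a co-receptor for VEGF that neurons also make, rose by 0.32 ± 0.13 (edgeR adjusted p = 0.041).

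Genes of other cell types moved in the same comparison, in both directions. Of 8 DG granule cell markers 5 were higher and 1 was lower in fixed frozen sections (median log2 fold change 0.55), of 7 CA1 markers 1 was higher and none was lower (median 0.12), and of 7 CA3 markers 1 was higher and 2 were lower (median -0.24). Summed CPM of 7 erythrocyte genes ran from 264 to 701 CPM in fresh-frozen TE and from 0 to 111 CPM in fixed frozen TE, 4 of the 7 genes had no UMI in fixed frozen sections, and all 3 that were tested fell. Summed CPM of 10 astrocyte genes ran from 2619 to 5553 CPM in fresh-frozen TE and from 587 to 1481 CPM in fixed frozen TE, with 6 genes lower and 1 higher. For 10 genes of meningeal and perivascular fibroblasts the sums were 337 to 1210 CPM and 159 to 844 CPM, with 6 lower and none higher. For 11 choroid plexus genes they were 49.4 to 2771 CPM and 0 to 2057 CPM, with 6 of 8 lower. For 14 genes of microglia and perivascular macrophages they were 168 to 302 CPM and 78.3 to 213 CPM, with 3 of 13 lower and 1 higher. For 8 oligodendrocyte genes they were 2828 to 11335 CPM and 2095 to 18438 CPM, with 4 lower and 2 higher. Ptgds held most of the fibroblast sum and Ttr most of the choroid plexus sum, here and in the later comparisons. Over the 48 replicates Ptgds averaged 876 CPM, against 32.2 CPM for Col1a2, the next gene of its list. Ttr averaged 704 CPM, against 17.8 CPM for Sostdc1. Median log2 fold changes over the genes tested were -4.19 for erythrocytes, -2.33 for choroid plexus, -1.27 for fibroblasts and -0.80 for astrocytes. They were -0.48 for oligodendrocytes and -0.14 for microglia and macrophages. The median depth was 629964 UMIs per replicate in fresh-frozen TE and 122520 in fixed frozen TE. The part of these cells and of the depth in the changes of the 9 genes was not tested, except that thinning to 1 depth kept the 4 calls named above.

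**Figure D3:**
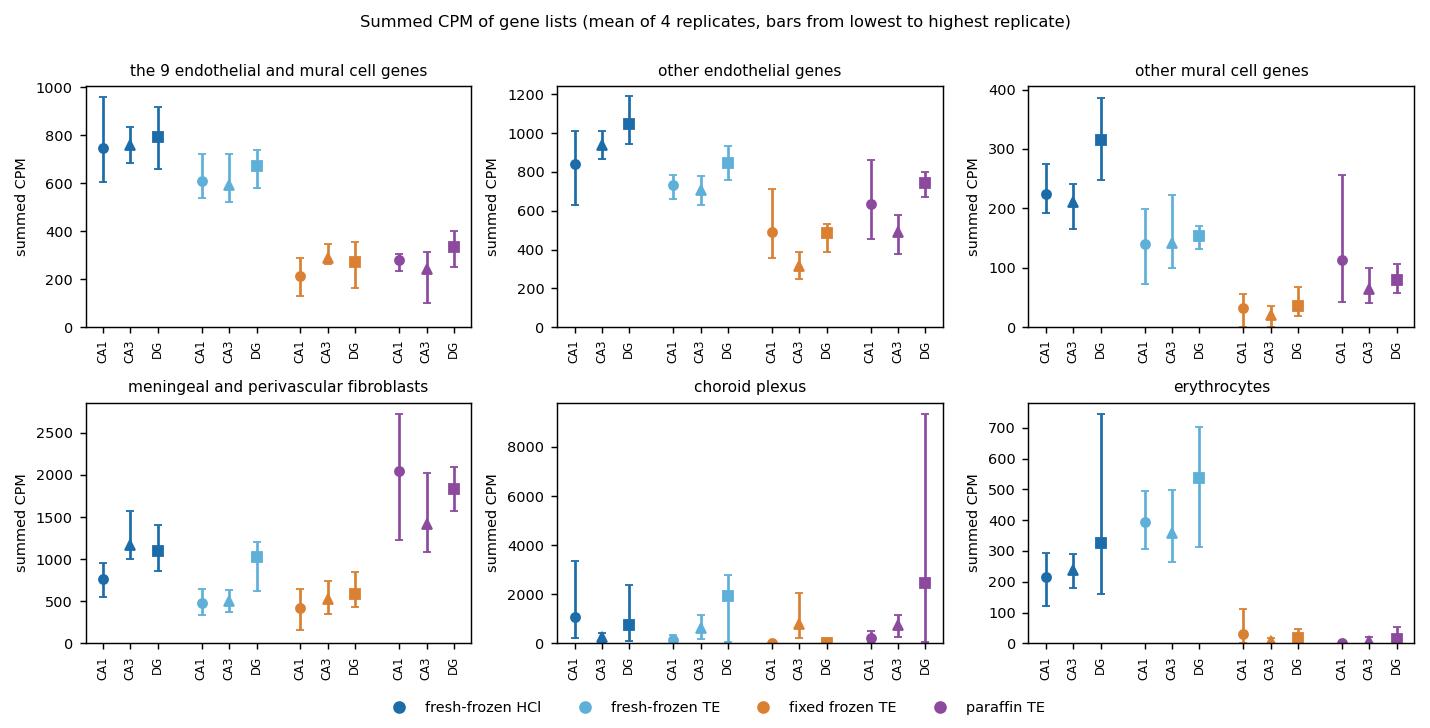
Summed CPM (y axis, linear, a scale of its own per panel) of the 9 genes and of 5 other gene lists by region and histological condition; each symbol is the mean of 4 replicates and each bar runs from the lowest to the highest replicate. The erythrocyte sum was at most 111 CPM in fixed frozen TE and 53.8 CPM in paraffin TE, and the choroid plexus sum in DG of paraffin TE ran from 49.3 to 9328 CPM. Most of the fibroblast sum was Ptgds, and most of the choroid plexus sum was Ttr.

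The comparison of permeabilization on fresh-frozen sections also moved most of the 9 genes. In fresh-frozen HCl 6 of 9 genes were higher than in fresh-frozen TE, which were Vtn, Cldn5, Pecam1, Ly6c1, Itm2a and Slco1a4, and 1 was lower, which was Bsg. Flt1 and Rgs5 did not pass the test. Of all 18164 genes tested, 17.2% were called higher and 13.7% lower in fresh-frozen HCl, and the median log2 fold change was 0.48 over the 9 genes and 0.12 over all genes. With every replicate thinned to the smallest total, 8 genes could be tested and 1, Ly6c1, was called. Of all 9511 genes tested on the thinned counts, 481 were called higher and 247 lower in fresh-frozen HCl.

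Vtn rose the most. It ran from 24.1 to 93.1 CPM in fresh-frozen HCl (median 40.1 CPM) and from 8.09 to 25.7 CPM in fresh-frozen TE (median 15.5 CPM), and the ranges overlapped through the 2 highest TE replicates and the 4 lowest HCl replicates. The change was 2.62-fold (log2 fold change 1.39 ± 0.22, edgeR adjusted p = 1.3e-06). The 2 mural cell genes differed here, since Rgs5 had medians of 198 and 169 CPM with overlapping ranges and a log2 fold change of 0.20 ± 0.12, whose 95% interval ran from -0.03 to 0.42 (edgeR adjusted p = 0.20).

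Ly6c1 had a lowest level of 68.6, a median of 106 and a highest level of 169 CPM in fresh-frozen HCl against 39.1, 67.5 and 104 CPM in fresh-frozen TE, and rose 1.501-fold (log2 fold change 0.59 ± 0.14, edgeR adjusted p = 0.00059). Slco1a4 ran from 47.2 to 148 CPM against 37.7 to 95.6 CPM, with medians of 94.0 and 66.4 CPM (log2 fold change 0.48 ± 0.13, edgeR adjusted p = 0.0048). Itm2a ran from 41.9 to 84.0 CPM against 13.6 to 59.0 CPM, with medians of 56.1 and 39.0 CPM (log2 fold change 0.48 ± 0.16, edgeR adjusted p = 0.015). The ranges of all 3 genes overlapped between the conditions, and Itm2a was not called without replicate 4 of every library. Pecam1 had 112 UMIs in HCl and 52 in TE and was present in every replicate of both (log2 fold change 0.98 ± 0.27, edgeR adjusted p = 0.0037). Cldn5 had 48 UMIs in 10 of 12 replicates in HCl and 18 UMIs in 7 of 12 replicates in TE (log2 fold change 1.26 ± 0.49, edgeR adjusted p = 0.042). The call for Cldn5 was lost with DESeq2 (adjusted p = 0.055) and when any of 14 of the 24 replicates was left out (adjusted p up to 0.091). Flt1 had medians of 162 and 138 CPM and a log2 fold change of 0.10 ± 0.11, with a 95% interval from -0.11 to 0.32 (edgeR adjusted p = 0.52).

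Bsg went the other way. It had a lowest level of 25.1, a median of 64.7 and a highest level of 140 CPM in fresh-frozen HCl, against 89.5, 113 and 174 CPM in fresh-frozen TE. Of the 12 HCl replicates, 9 lay below the lowest TE replicate and 3 reached into the TE range. Bsg was 1.86-fold lower in HCl (log2 fold change -0.90 ± 0.15, edgeR adjusted p = 4.3e-06). The mean was lower in HCl in each region, with means of 79.0 and 107 CPM in CA1, 82.7 and 136 CPM in CA3 and 49.8 and 115 CPM in DG.

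Among the other vascular genes, 8 of 35 endothelial genes tested were higher in HCl and 1 was lower, where 17.2% of all genes were called higher and 13.7% lower. Slc22a8, an organic anion transporter, had means of 41.5 and 17.7 CPM (log2 fold change 1.13 ± 0.19, edgeR adjusted p = 4.8e-06), and Car4, a carbonic anhydrase on capillaries, 54.8 and 22.4 CPM (log2 fold change 1.11 ± 0.19, edgeR adjusted p = 9.9e-06). Ctla2a was the gene that was lower, at 7.01 against 12.8 CPM (edgeR adjusted p = 0.029). Of 15 mural cell genes tested 5 were higher and none was lower, among them Acta2 at 66.2 against 27.7 CPM (log2 fold change 1.09 ± 0.22, edgeR adjusted p = 0.00012) and Pdgfrb, the PDGF receptor of pericytes, at 25.8 against 13.2 CPM (log2 fold change 0.87 ± 0.23, edgeR adjusted p = 0.0025). Of 16 signalling genes tested 5 were higher and 1 was lower. Summed CPM of the fibroblast list ran from 552 to 1575 CPM in HCl and from 337 to 1210 CPM in TE, with 5 of 10 genes higher, and that of the erythrocyte list from 120 to 744 CPM in HCl and from 264 to 701 CPM in TE, with 2 of 3 genes lower. Of 8 oligodendrocyte genes 4 were higher and none was lower, of 10 astrocyte genes 3 were higher and 4 lower, and of 14 microglia and macrophage genes 2 were higher and 2 lower. None of 10 choroid plexus genes was called. Of the neuronal markers, 2 of 8 for DG were higher and 2 lower, 1 of 7 for CA1 was lower, and 1 of 7 for CA3 was higher and 2 were lower. Their part in the changes of the 9 genes was not tested.

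In the comparison of paraffin with frozen sections of fixed tissue, the counts were small, since the 9 genes held 331 UMIs in the 12 paraffin replicates and 463 in the 12 fixed frozen replicates. Of 8 genes tested 3 were higher in paraffin sections, which were Pecam1, Slco1a4 and Rgs5, and 1 was lower, which was Bsg. Cldn5, with 2 UMIs and 1 UMI, was below the limit of 10 UMIs for the test. Of all 12189 genes tested 20.1% were called higher and 9.63% lower in paraffin sections, or 2450 and 1174 genes. This split depended on the scaling, since with TMM factors from all tested genes 1666 genes were called higher and 1753 lower, and the median log2 fold change of all genes was 0.25 with the first and 0.05 with the second scaling. The median over the 8 genes tested was 0.47.

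Slco1a4 had a lowest level of 0, a median of 32.2 and a highest level of 72.0 CPM in paraffin TE, against 0, 14.1 and 42.3 CPM in fixed frozen TE, and a log2 fold change of 1.06 ± 0.40 (edgeR adjusted p = 0.033). Rgs5 ran from 0 to 103 CPM (median 50.3 CPM) against 0 to 67.1 CPM (median 34.7 CPM), with a log2 fold change of 0.80 ± 0.32 (edgeR adjusted p = 0.041). With TMM factors from all tested genes neither passed the test, and Rgs5 was called in 2 and Slco1a4 in 7 of 11 other settings. Leaving out 1 replicate ended the call of Rgs5 for 12 and that of Slco1a4 for 6 of the 24 replicates (adjusted p up to 0.13 and 0.079). Pecam1 had 12 UMIs in 5 paraffin replicates and 3 UMIs in 2 fixed frozen replicates (log2 fold change 2.21 ± 0.69, edgeR adjusted p = 0.0081), and it was not called with DESeq2 (adjusted p = 0.12) or without paraffin replicate 1 of DG, which held 4 of its UMIs (adjusted p = 0.067). Bsg ran from 14.1 to 131 CPM (median 29.5 CPM) in paraffin TE and from 22.4 to 163 CPM (median 73.1 CPM) in fixed frozen TE. It was 1.73-fold lower in paraffin sections (log2 fold change -0.79 ± 0.29, edgeR adjusted p = 0.026), and the call was lost without replicate 4 of every library and without any 1 of 4 replicates, namely CA3 replicate 1 or DG replicate 2 of either condition (adjusted p up to 0.088).

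Flt1, Ly6c1, Itm2a and Vtn did not pass the test between paraffin and fixed frozen sections, and their ranges overlapped widely. The log2 fold change of Flt1 was 0.28 with a 95% interval from -0.19 to 0.75, and that of Itm2a -0.18 with an interval from -0.84 to 0.48. For Ly6c1 and Vtn the intervals were over 2 log2 units wide, from -0.94 to 1.28 and from -0.75 to 2.08. Of 28 other endothelial genes tested 4 were higher and none was lower, where 20.1% of all genes were called higher and 9.63% lower. Slc2a1, the glucose transporter of the barrier, rose from 43.4 to 136 CPM (log2 fold change 1.67 ± 0.25, edgeR adjusted p = 2.6e-09), and Slc16a1, a monocarboxylate transporter that basigin accompanies, from 42.6 to 69.9 CPM (log2 fold change 1.12 ± 0.28, edgeR adjusted p = 0.00091). Of 5 mural cell genes tested 1 was higher and 1 was lower, and of 12 signalling genes 2 were higher, namely Lrp6 and Vegfa. Of 8 DG markers 5 and of 7 CA1 markers 2 were lower and none was higher, and of 7 CA3 markers 2 were higher. Of 9 astrocyte genes 4 were higher and 1 lower, and of 10 microglia and macrophage genes 2 were lower. All 8 oligodendrocyte genes were higher in paraffin sections, with sums of 6193 to 24631 CPM against 2095 to 18438 CPM, and 4 of 6 choroid plexus genes were higher. Their part in the changes of the 9 genes was not tested.

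Regions were compared within each condition on the 8 replicates of a pair of regions. In fresh-frozen HCl 0 of 27 tests of the 9 genes (3 pairs of regions each) were called by edgeR at an adjusted p under 0.05, 2 had an unadjusted p under 0.05, and DESeq2 called 0 of 27. Over all genes 17.2% were called between CA1 and DG, 9.05% between CA3 and DG and 9.13% between CA1 and CA3. The 9 genes summed to 748 ± 151 CPM (SD, n = 4) for CA1, 760 ± 62.2 CPM for CA3 and 791 ± 109 CPM for DG. Flt1 gave the narrowest limits, with log2 fold changes of 0.02 between CA1 and DG (95% interval from -0.39 to 0.44) and -0.01 between CA3 and DG (from -0.36 to 0.34). The smallest adjusted p was that of Itm2a between CA1 and DG, whose replicates stood at 56.1, 68.9, 84.0 and 62.9 CPM in CA1 and at 45.4, 41.9, 44.4 and 58.6 CPM in DG. The highest DG replicate overlapped with the lowest CA1 replicate, and the log2 fold change was 0.59 ± 0.25 (edgeR adjusted p = 0.095). Without replicate 2 of DG, Bsg was called between CA1 and DG (adjusted p = 0.040).

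The replicate number mattered for Bsg between CA3 and DG of fresh-frozen HCl, where same-numbered replicates deviated together. For replicates 1 to 4 Bsg stood at 42.9, 140.3, 65.4 and 82.1 CPM in CA3 and at 53.9, 80.7, 39.3 and 25.1 CPM in DG, so that the ranges overlapped and CA3 was the higher of 3 of the 4 pairs. The log2 fold change was 0.68 ± 0.31 without the pairing (edgeR adjusted p = 0.19) and 0.72 ± 0.19 with the replicate number as a block (edgeR adjusted p = 0.0013), so that the paired fit called 1 of the 27 tests. Over all genes the block called 2623 of 15161 between CA3 and DG, against 1372 without it. Between CA1 and DG it called 2771 of 14893 genes, and between CA1 and CA3 2015 of 15637. With counts thinned to the smallest total the block gave an edgeR adjusted p of 0.84 for Bsg. The choroid plexus sums were 73.8 to 417 CPM in these CA3 replicates and 103 to 2398 CPM in DG, and their part in the result was not tested.

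In fresh-frozen TE 0 of 27 tests were called by edgeR, 4 had an unadjusted p under 0.05, and DESeq2 called 0. The calls over all genes were 10.1% between CA1 and DG, 7.82% between CA3 and DG and 4.31% between CA1 and CA3. Here the 9 genes summed to 610 ± 79.4 CPM (SD, n = 4) for CA1, 594 ± 93.6 CPM for CA3 and 670 ± 65.5 CPM for DG. Pecam1 in CA1, at 11.5, 4.52, 10.8 and 8.09 CPM, did not overlap with CA3 at 2.95, 4.50, 4.29 and 3.91 CPM, but the log2 fold change of 1.14 ± 0.50 rested on 24 and 13 UMIs and did not pass the test (edgeR adjusted p = 0.28). Vtn had 16.1, 9.04, 14.9 and 8.09 CPM in CA1 and 25.1, 21.6, 25.7 and 13.7 CPM in CA3, where 3 of 4 replicates lay above all CA1 replicates. Its log2 fold change was -0.79 ± 0.33 (edgeR adjusted p = 0.24).

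In fixed frozen TE, where 18 tests were possible, 2 were called and both were those of Bsg. Over all genes 8.00% were called between CA1 and DG, 9.25% between CA3 and DG and 7.40% between CA1 and CA3. The replicates of Bsg in CA3 stood at 163, 120, 86.1 and 133 CPM, from 16, 17, 11 and 7 UMIs. Those of CA1 stood at 43.5, 71.9, 34.1 and 36.9 CPM and those of DG at 22.4, 81.4, 74.2 and 55.0 CPM, so that every CA3 replicate lay above every replicate of the other regions. Bsg was 1.99-fold higher in CA3 than in DG (log2 fold change 1.00 ± 0.33, edgeR adjusted p = 0.031) and 2.43-fold higher in CA3 than in CA1 (log2 fold change of CA1 over CA3 -1.28 ± 0.41, edgeR adjusted p = 0.029). Both calls were lost with DESeq2, with no filter on low counts, with thinning to the smallest total and without replicate 4. Without CA3 replicate 1, 2 or 4 neither call remained, the call against DG was also lost without DG replicate 1 or 4, and that against CA1 without CA1 replicate 1, 3 or 4 (adjusted p up to 0.17). Summed CPM of the choroid plexus list were 2057, 205, 438 and 417 CPM in these CA3 replicates, against 0 to 45.4 CPM in CA1 and DG. Their part in the result was not tested.

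In the other conditions Bsg had its highest mean in CA3 as well, but no difference was called without the replicate block, which called CA3 over DG in fresh-frozen HCl as given above. The means were 79.0 ± 24.03, 82.7 ± 41.6 and 49.8 ± 23.7 CPM (SD, n = 4) for CA1, CA3 and DG in fresh-frozen HCl, and 107 ± 7.89, 136 ± 35.3 and 115 ± 20.5 CPM in fresh-frozen TE. In paraffin TE the CA3 replicates stood at 33.1, 131, 125 and 25.1 CPM, and 2 of them lay above all replicates of CA1, which reached 42.7 CPM, and of DG, which reached 35.9 CPM. The log2 fold change of CA3 over DG was 1.51 ± 0.55 in paraffin sections (edgeR adjusted p = 0.11). Without CA3 replicate 1, which held 4 of the 24 UMIs, it was called (adjusted p = 0.023), and so was Rgs5 in the other direction (adjusted p = 0.043). The choroid plexus sums of the CA3 replicates were 894, 1169, 272 and 601 CPM in paraffin TE, with 49.3 to 9328 CPM in DG.

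**Figure D4:**
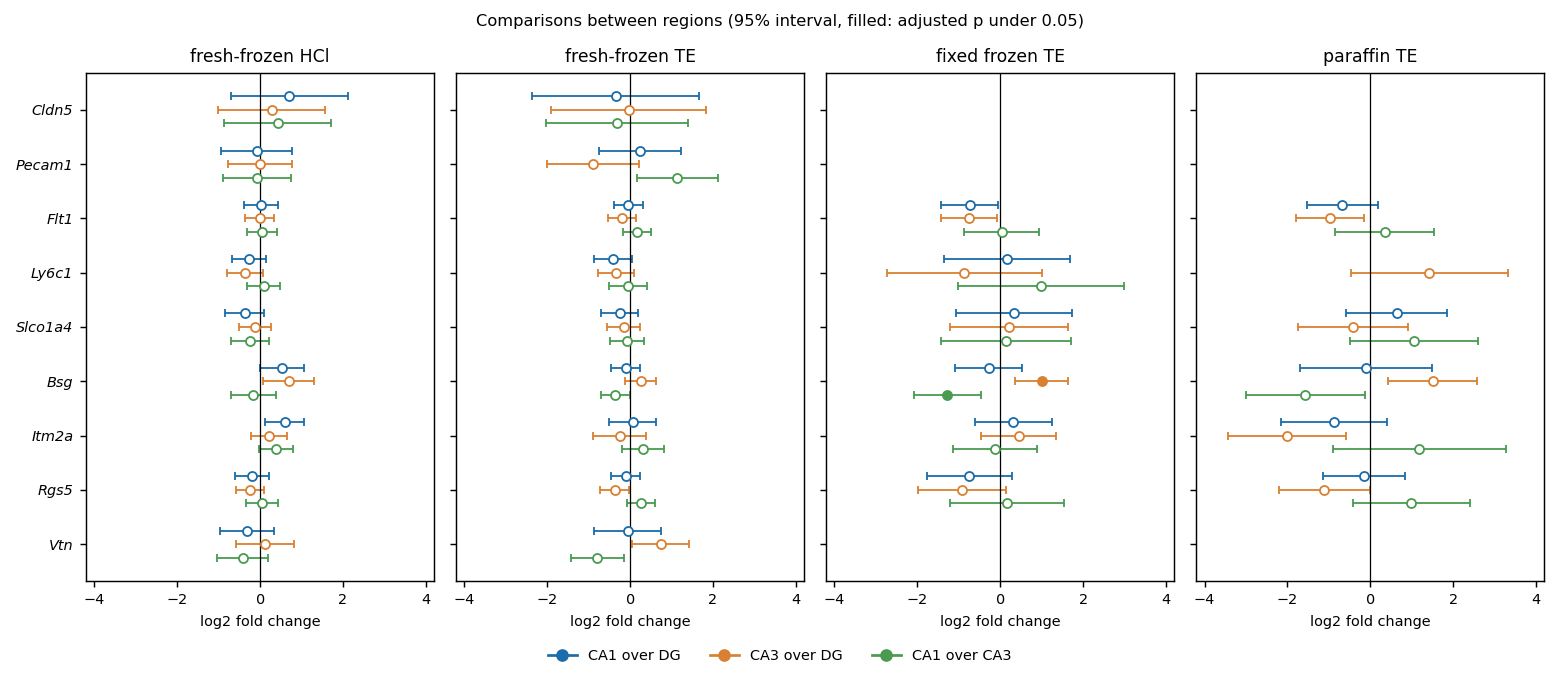
Log2 fold change of each gene (x axis) between pairs of regions (colours) in the 4 histological conditions, with the 95% interval of the fitted model as a bar and filled points for an adjusted p under 0.05; a pair without a point was not tested because it held fewer than 10 UMIs. The 2 filled points are Bsg in fixed frozen TE, at 1.00 for CA3 over DG and at -1.28 for CA1 over CA3.

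For the other genes in fixed frozen TE, Flt1 stood at 112, 117, 120 and 64.2 CPM in DG, at 72.4, 71.9, 76.7 and 0 CPM in CA1 and at 30.6, 91.8, 78.3 and 0 CPM in CA3. The ranges overlapped through replicate 4 of DG, and the log2 fold changes of -0.74 ± 0.35 for CA1 over DG and -0.76 ± 0.35 for CA3 over DG did not pass the test (edgeR adjusted p = 0.22 and 0.18). In paraffin TE 0 of 16 tests were called by edgeR and 0 by DESeq2, and 4 had an unadjusted p under 0.05. The calls over all genes were 2.79% between CA1 and DG, 3.72% between CA3 and DG and 2.37% between CA1 and CA3. Itm2a had 20.3, 88.9, 76.2 and 46.7 CPM in paraffin DG and 8.27, 30.2, 0 and 0 CPM in CA3, where 2 replicates held no UMI and where 3 UMIs of the library correspond to 9.75 CPM. Its log2 fold change of CA3 over DG was -2.02 ± 0.73 (edgeR adjusted p = 0.11).

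Whether a region difference itself differed between conditions was tested in 1 model over all 48 replicates. Of 81 tests of the 9 genes (9 contrasts each) 0 were called by edgeR, and 3 had an unadjusted p under 0.05. Over all genes 0.299% of these tests were called. The smallest adjusted p was 0.35, for Itm2a between CA3 and DG in paraffin against fixed frozen sections, where the difference of log2 fold changes was -2.53 ± 0.85. The difference for Bsg between CA1 and CA3, fixed frozen against fresh-frozen TE, was -0.95 ± 0.48 (edgeR adjusted p = 0.72).

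Of the other endothelial genes, 6 of 33 were called between CA1 and DG of fresh-frozen HCl, where 17.2% of all genes were called, 1 of 33 between CA3 and DG (9.05% of all genes) and 3 of 34 between CA1 and CA3 (9.13%). In fresh-frozen TE 2 of 32, 5 of 32 and 2 of 31 were called in the same order of pairs (10.1%, 7.82% and 4.31% of all genes), and in fixed frozen TE 3 of 15, 2 of 17 and 2 of 11 (8.00%, 9.25% and 7.40%). In paraffin TE edgeR called 0 of 12, 0 of 14 and 0 of 7 (2.79%, 3.72% and 2.37%), with 3, 5 and 1 at an unadjusted p under 0.05. Between CA1 and DG the called endothelial genes went in both directions. In CA1 2 were higher and 4 lower in fresh-frozen HCl, where the median log2 fold change of the endothelial genes tested was -0.31. In fresh-frozen TE 1 was higher and 1 lower, and in fixed frozen TE 1 was higher and 2 were lower. The following are single genes of the wider lists that were called, and Cd34 is 1 of those higher in CA1. Cd34 was higher in CA1 than in DG in fresh-frozen HCl (24.2 against 8.05 CPM, log2 fold change 1.79 ± 0.45, edgeR adjusted p = 0.0038), in fresh-frozen TE (25.8 against 6.62 CPM, edgeR adjusted p = 0.0044) and in fixed frozen TE (90.1 against 18.2 CPM, edgeR adjusted p = 0.00014). Acta2 was lower in CA1 than in DG in fresh-frozen HCl, at 42.9 against 111 CPM (log2 fold change -1.58 ± 0.26, edgeR adjusted p = 1.4e-05), and Myh11 and Myl9, further genes of smooth muscle, were lower as well. In the same comparison 4 of 10 fibroblast genes were lower in CA1, where 1248 of all 14893 genes were lower. Among the 4 was Col1a2 at 34.0 against 86.2 CPM (edgeR adjusted p = 0.00029). Nrp2, a co-receptor for VEGF-C and semaphorins, stood at 54.6 CPM in CA1 and 259 CPM in DG (log2 fold change -2.19 ± 0.20, edgeR adjusted p = 2.8e-11). Of the other mural cell genes, 3 of 12 were called between CA1 and DG in fresh-frozen HCl, but 0 of 10 in fresh-frozen TE (median log2 fold change 0.003). In fixed frozen TE 0 could be tested, and in paraffin TE 0 of 2 were called. Fibroblast genes lower in CA1 than in DG were 6 of 10 in fresh-frozen TE, where 733 of all 14011 genes were lower. In fixed frozen TE they were 1 of 4 (372 of all 9385 genes), and in paraffin TE 0 of 2.

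The order of the levels across the 12 libraries was described by the genes whose pattern was most like it. The likeness was Pearson's r of log2(CPM + 10) over 12 library means, computed for the 8999 genes that averaged 5 UMIs or more over the 48 replicates, and libraries of 1 condition share depth and tissue treatment. For Bsg the 5 most similar genes were Prkaa2 (r = 0.948), Acot7 (r = 0.923), Znhit2 (r = 0.922), Dynll2 (r = 0.917) and Opcml (r = 0.909). Prkaa2 stood at 71.9 CPM in CA3 of fresh-frozen TE, its highest mean, and at 20.1 CPM in DG of paraffin TE, its lowest. For the summed CPM of the other 8 genes they were Gm44679 (r = 0.992), Gm44927 (r = 0.988), Tril (r = 0.984), Gm44797 (r = 0.978) and Gm45537 (r = 0.975). Tril, a leucine-rich repeat protein known from glia, had means of 114 to 136 CPM in fresh-frozen HCl, 94.98 to 126 CPM in fresh-frozen TE, 17.0 to 22.8 CPM in fixed frozen TE and 15.0 to 40.1 CPM in paraffin TE. None of the 10 genes belongs to the vascular lists.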

How the data were processed

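The authors deposited a table of raw UMI counts per gene and barcode, made with UMI-tools 1.0.0 (UMIs of 6 bases), HISAT2 2.1.0 on GRCm38 and featureCounts 1.6.4, and called genes with DESeq2 1.20.0. The counting command in the methods sets no strand option, so reads of both strands count for a gene, and the annotation release is not given in the sources used here. The region named CA2 in the series' description was taken as CA3, as in the sample titles.

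Here counts were tested with edgeR 4.0.16 in R 4.3.3 (quasi-likelihood, a gene needing 10 UMIs in total across the fit, Benjamini-Hochberg over all genes tested). TMM factors came from genes averaging 5 UMIs or more, a step added after a trial on simulated counts with known changes. The results kept from that trial give no comparison with factors from all tested genes. Intervals (95%) are the estimate with 1.96 SE on each side and, like floors of 3 UMIs, cover no error shared by a library. Same-numbered replicates deviated together (every r over 0.1) between all regions of fresh-frozen TE (r from 0.18 to 0.34), between CA3 and DG of fresh-frozen HCl (0.23 to 0.43), and between HCl and TE for CA3 and DG but not CA1. Differently numbered replicates reached r = 0.25 between CA1 and CA3 and 0.24 between CA3 and DG of fresh-frozen TE. They reached 0.20 between CA3 and DG of fresh-frozen HCl, and 0.26 between HCl and TE for CA3. Every replicate was most like its own number in 4 of 12 pairs of libraries within a condition, CA3 and DG of fresh-frozen HCl among them. The number is the only source of this pairing, and blocked values stand beside the results they change.

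The 9 genes and the lists were chosen with earlier results of these data known. Genes of the lists were named by a rule: called genes averaging 5 UMIs or more in 1 of the groups, at most 4 per list and direction by size, with the 3 of highest mean CPM open to naming. Pltp and Igf2 were not analysed here. Figures used matplotlib 3.10.9, and DESeq2 1.42.0 was an alternative.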

Additional observations from a re-analysis of the deposited data

Results flagged for a closer look

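In 4 of 76 groups of 4 replicates with at least 10 UMIs, 1 replicate lay farther from the others than Dixon's limit allows, and chance alone marks about 1 group in 20. All 4 were fixed frozen groups. Flt1 in CA1 had a lowest value of 0 CPM in replicate 4 against 71.9 to 76.7 CPM in the others (ratio 0.937), and Flt1 in DG a lowest value of 64.2 CPM in replicate 4 against 112 to 120 CPM (ratio 0.859). Slco1a4 in DG had a highest value of 32.6 CPM in replicate 2 against 7.45 to 9.17 CPM (ratio 0.931). Itm2a in DG had a highest value of 66.0 CPM in replicate 3 against 27.5 to 29.8 CPM (ratio 0.940). The test of the interaction called 0 of 81 region differences of the 9 genes, where 0.299% of such tests were called over all genes. The lack of a call does not show that the differences were equal. For CA1 over DG, fixed frozen against fresh-frozen TE, the SE was 0.42 for Flt1 and 2.29 for Pecam1.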

How the results depend on the processing

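The number of the 9 genes called was compared over 12 other settings and with each replicate left out. No fold change of a test called in any setting changed its sign. In fresh-frozen HCl the replicate block called 1 of 27 region tests, Bsg between CA3 and DG, and leaving out a replicate gave 0 to 1. Over all genes the block raised the calls of that pair from 1372 to 2623 of 15161. In fresh-frozen TE every setting gave 0. In fixed frozen TE the count of 2 became 0 with DESeq2, with no filter on low counts, with thinning, with the replicate block on thinned counts and without replicate 4, 1 with filterByExpr, which tested 2, and 0 to 2 with a replicate left out. In paraffin TE leaving out a replicate gave 0 to 2, the 2 (Bsg and Rgs5, CA3 over DG) without CA3 replicate 1. Between HCl and TE the count of 7 fell to 1, and between fixed and fresh-frozen sections to 4, with thinning, with or without the block. Leaving out a replicate gave 6 to 7 in both. Between paraffin and fixed frozen sections the count of 4 became 2 with DESeq2, with all 48 replicates in the fit, with TMM factors from all tested genes and without replicate 4, and 0 with filterByExpr, which tested 1 gene, and with thinning, with or without the block. Leaving out a replicate gave 1 to 4, with 1 without CA3 replicate 1 of the fixed frozen or DG replicate 1 of the paraffin sections. The TMM factors from all tested genes and the fits without replicate 4 were added after seeing the data. Over all genes, thinning without the block called 728 of 9511 between HCl and TE and 2680 of 8924 between fixed and fresh-frozen sections. Between paraffin and fixed frozen sections it called 1473 of 8938. Fewer genes tested under filterByExpr and fewer UMIs under thinning are part of those settings, and for the others the cause was not tested. Ly6c1 (HCl against TE, fixed against fresh) and Flt1, Slco1a4 and Rgs5 (fixed against fresh) were called in every setting and with every replicate left out. Among the tests of the 9 genes the replicate block changed 2 calls, that of Bsg in fresh-frozen HCl, whose replicates passed the check of pairing, and that of Rgs5 between paraffin and fixed frozen sections (adjusted p = 0.054), where the samples share only a number. The median log2 fold change of all genes between fixed and fresh-frozen sections ran from -0.42 to -0.085 over the settings. Cldn5, Pecam1 and Vtn held 12 UMIs or fewer in each of the fixed conditions, which limits the precision of their values.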

Other observations

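Ly6a, an endothelial surface gene that shares sequence with Ly6c1, varied with the replicate number in fresh-frozen sections. In fresh-frozen TE its mean over the 3 regions was 41.0 CPM in replicate 1 and 42.4 CPM in replicate 4, against 7.35 CPM in replicate 2 and 7.41 CPM in replicate 3, and the ranges of the first pair (26.5 to 52.9 CPM) and the second pair (4.50 to 11.8 CPM) did not overlap. In fresh-frozen HCl the means were 46.0, 13.6, 19.5 and 58.4 CPM for replicates 1 to 4. In fixed frozen TE they were 14.1, 25.6, 9.72 and 0 CPM. Ly6a was picked for this after its values were seen, and no comparison between replicate numbers was tested.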
